A study of Mus musculus with 6 samples.

Results

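Of 50287 cells kept from 6 single-cell RNA libraries of the hippocampus of old mice, 217 carried the transcripts of mural cells, the pericytes and smooth muscle cells that sit on the outer wall of blood vessels. They were chosen by measured values. The summed level of the 7 mural genes Atp13a5, Pdgfrb, Rgs5, Notch3, Abcc9, Acta2 and Myh11 had to reach 15 unique molecular identifiers (UMIs, tags that count captured transcripts) per 10000 UMIs of the cell, from at least 3 UMIs. The summed level of the 4 endothelial genes Flt1, Cldn5, Mecom and Pecam1 had to stay under 15 per 10000. A barcode counted as a cell when it had 500 UMIs or more from 300 genes or more and no more than 20% of its UMIs were mitochondrial. Levels of these 11 genes, and every difference between the chosen cells and the other cells, are therefore descriptions without a test.

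The Sevoflurane group held 3 libraries from old mice exposed to the inhaled anaesthetic sevoflurane at 2% for 6 h, and the Control group held 3 libraries from old mice given air. The hippocampus was collected 24 h later in both groups. Tissue of both groups was digested with collagenase, and the cell suspensions were frozen and thawed before capture, per the labels' protocols. The series' design text speaks of 6 mice in all and gives neither strain, genotype, sex nor age in weeks. Nothing ties a library to an animal, so a p-value reflects how these libraries vary, which may be technical. The comparison asks which genes and how many cells of the vessel wall differ after the anaesthetic.

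Pericytes lie along capillaries inside the basement membrane that they share with the endothelium, and they depend on platelet-derived growth factor B from endothelial cells, which acts on their receptor Pdgfrb. They help to form the blood-brain barrier and to set capillary diameter, and their KATP channel, built from Kcnj8 and the sulfonylurea receptor Abcc9, ties membrane potential to metabolism. Smooth muscle cells ring arteries and arterioles and contract through Acta2 (smooth muscle alpha actin) and Myh11 (smooth muscle myosin heavy chain), under the control of calcium entry, myosin light chain kinase and the serum response factor with its partner myocardin. Notch3 is a receptor of both cell types.

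The libraries held 54426522 to 70741809 UMIs and 7042 to 9758 kept cells, and no pair of libraries shared more than 0.333% of its barcodes. Sevoflurane 1 stood apart in sex-linked genes: its mural cells had 1447 UMIs per 1000000 (CPM) of Xist and 0 CPM of the Y-linked Ddx3y, whereas the mural cells of the other 5 libraries had 0 CPM of Xist. It also held the fewest mural cells, 15. Values without it are given for the share of mural cells, the count of called genes and Ttr, but not for each named gene. The doublet caller Scrublet marked 55 of the 217 mural cells, among them 13 of the 15 in Sevoflurane 1 and 24 of the 30 in Control 2, but none in Control 1 (0 of 41). Mural cells were shallow, with a median of 1802, 1668 and 1949 UMIs in Sevoflurane 1, 2 and 3 and of 1944, 2218 and 2384 UMIs in Control 1, 2 and 3, while the median of all kept cells lay between 5515 and 6459 UMIs.

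The label was checked on markers outside the gate, since 5 of 14 pericyte markers and 2 of 12 smooth muscle markers are gate genes. Of the other 9 pericyte markers, 8 were detected in at least 10% of the mural cells, and of the other 10 smooth muscle markers 6 were. These pericyte markers summed to 1838 to 3213 CPM in Sevoflurane mural cells and to 1856 to 2326 CPM in Control mural cells, against 43.0 to 71.1 CPM in the remaining cells of the libraries. These smooth muscle markers summed to 1418 to 2224 CPM in Sevoflurane and to 1617 to 3824 CPM in Control, against 470 to 578 CPM in the remaining cells. Of this list, Cald1 alone had 881 to 1412 CPM by library in mural cells, and Kcnab1 alone had 439 CPM in the remaining cells. Cald1 was also high in mural cells low in Acta2 and Myh11, so this sum does not show smooth muscle cells in each library. Both sums are descriptions. None of the 5 microglial and none of the 4 border macrophage markers reached 10% of the cells.

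Transcripts of other cell types were present as well. The 6 neuronal markers summed to 2648 to 3199 CPM in Sevoflurane mural cells and to 3111 to 3860 CPM in Control mural cells, below the 7503 to 8572 CPM of the remaining cells, and all 6 were detected in at least 10% of the mural cells. By 4 of these markers, 151 mural cells (69.6%) reached 15 neuronal UMIs per 10000. Oligodendrocyte markers reached that level in 33 mural cells, choroid plexus markers in 12, fibroblast markers in 4 and astrocyte markers in 3. Without the 48 cells rich in markers of any of 6 other cell types, the neuronal list not among them, 1 gene was still called between the groups. That gene was Ttr, itself a choroid plexus marker used to choose the 48 cells, so the count is no separate check. The part of neuronal RNA in the results below was not tested.

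Across the 217 cells the gate genes reached a median of 10 UMIs per cell and a median of 46.1 per 10000. At least 3 of the 7 genes were detected in 158 cells (72.8%), while 21 cells passed on 1 gene alone, 11 of them on Atp13a5 and 7 on Rgs5. Just inside the threshold, 22 cells lay between 15 and 20 per 10000, and just outside it 66 cells lay between 10 and 15. Of the endothelial gate genes, no UMI was seen in 135 mural cells.

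Atp13a5, a P-type ATPase of brain pericytes, had 2012, 1409 and 1534 CPM in the mural cells of Sevoflurane 1, 2 and 3, against 2480, 1508 and 1413 CPM in those of Control 1, 2 and 3. Abcc9 had 530, 525 and 476 CPM in Sevoflurane, against 604, 463 and 406 CPM in Control. Notch3 had 671, 740 and 461 CPM in Sevoflurane, against 464, 545 and 452 CPM in Control. For these 3 genes the groups overlapped and every library carried the transcript. Pdgfrb had 706, 621 and 471 CPM in Sevoflurane, against 615, 391 and 286 CPM in Control. Rgs5, a regulator of G protein signalling that marks brain pericytes, was the most uneven of the 5 pericyte genes, with 388, 1504 and 881 CPM in Sevoflurane, against 1143, 1463 and 554 CPM in Control. The fitted log2 fold changes of the 5 genes, Sevoflurane over Control, lay between -0.22 (Rgs5) and 0.39 (Pdgfrb), and the groups overlapped for each.

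Outside the gate genes, the transcripts that led mural cells over the remaining cells were ranked by their mean log2 ratio over the 6 libraries, with 20 CPM added, among genes seen in at least 22 mural cells. The transcription factor Ebf1 led, at 1562 CPM in mural cells against 16.4 CPM in the remaining cells (mean log2 ratio 5.47) and with a UMI in 172 of the 217 cells. The imino acid transporter Slc6a20a (4.78), the RNA-binding protein Rbpms (4.68), the scavenger receptor Colec12 (4.47), Phldb2 (4.42), the non-coding RNAs Tbx3os1 (4.32) and Carmn (4.25), vitronectin (Vtn, 4.23), Adap2 (4.12) and the amino acid transporter Slc38a11 (4.10) completed the first 10. In each of these 10 genes the lowest of the 6 library ratios was still above 3. Further down stood the transporter Slc16a12 (3.91), the cytokine Il34 (3.73), the GTPase-activating protein Dlc1 (3.74), the calcium-activated chloride channel Ano1 (3.50), caldesmon (Cald1, 3.50) and myosin light chain kinase (Mylk, 3.44).

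Not all of these leading genes separated mural cells from fibroblast-gated or endothelial cells. Slc6a20a stood at 828 CPM in mural cells against 962 CPM in the 52 fibroblast-gated cells, Colec12 at 715 against 836 CPM and Cped1 at 473 against 1775 CPM. The endothelial gate, which asked for the 4 endothelial genes and too little of the mural genes, held 308 cells. Ebf1 stood at 1562 CPM in mural cells against 863 CPM in endothelial-gated cells, and Igfbp7 at 548 against 432 CPM. Carmn at 392 against 2.19 CPM, Slc38a11 at 415 against 4.38 CPM and Tbx3os1 at 404 against 8.75 CPM were low in the endothelial-gated cells, and for these 3 the lowest mural library lay above the highest endothelial one. The endothelial glucose transporter Slc2a1 ran the other way, at 161 CPM in mural cells against 1164 CPM in endothelial-gated cells.

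**Figure D1:**
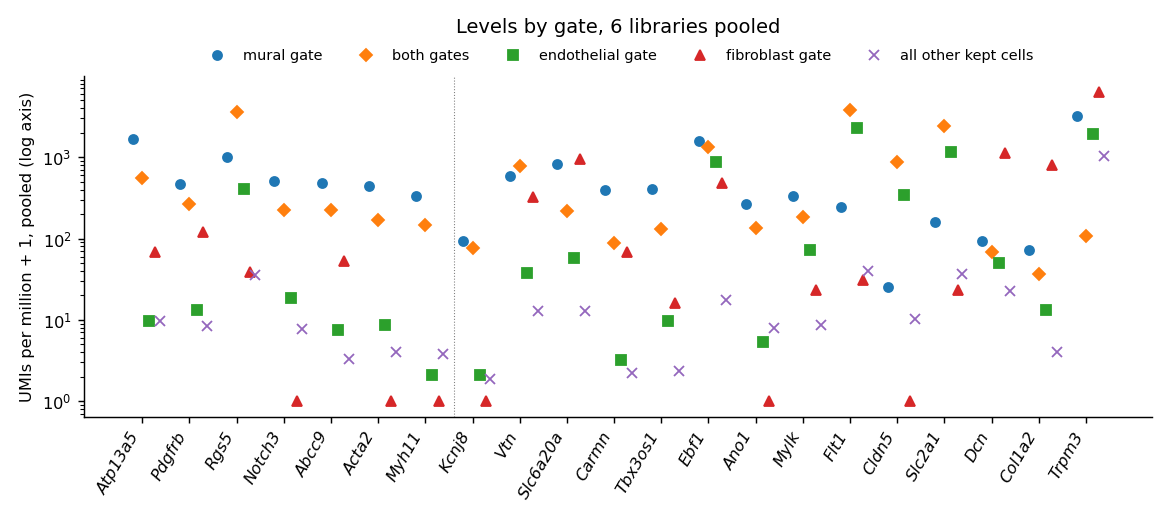
Levels of 21 genes, in CPM with 1 added on a log axis, with the 6 libraries pooled, in the 217 mural cells, the 478 cells that passed both gates, the 308 endothelial-gated cells, the 52 fibroblast-gated cells and all kept cells outside the mural gate. Genes left of the dotted line are the 7 mural gate genes; Carmn and Tbx3os1 are high in mural cells and low in endothelial-gated cells, whereas Rgs5 is highest in cells that passed both gates.

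A further 478 cells passed both gates and were left out of the mural set. They had 3578 CPM of Rgs5, above the 993 CPM of mural cells, with 3828 CPM of Flt1 and 2426 CPM of Slc2a1. Their Atp13a5 stood at 550 CPM against 1672 CPM in mural cells, and their Abcc9 at 224 against 487 CPM. By library they numbered 40, 93 and 104 in Sevoflurane and 112, 73 and 56 in Control. The mural set therefore holds fewer cells than the libraries have with mural transcripts.

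Within the mural set, 21 cells carried at least 10 UMIs per 10000 of Acta2 and Myh11 from at least 2 UMIs. These are called the smooth muscle side, and the other 196 cells the pericyte side. Both genes chose the division, so their difference is no result. Of the 21 smooth muscle side cells, 19 had no UMI of Atp13a5, Abcc9 or Rgs5, and of the 196 pericyte side cells 6 had none; these are gate genes, and a cell low in Acta2 and Myh11 entered mainly through them, so the choice of cells fixes much of this contrast. Outside the gate, Vtn had 40.5 CPM on the smooth muscle side and 668 CPM on the pericyte side, and Slc6a20a 27.0 and 945 CPM. The values on the smooth muscle side rest on 3 UMIs of Vtn and 2 of Slc6a20a. Among the pericyte markers outside the gate, Mcam and Cspg4 ran the other way, while the rest were lower on the smooth muscle side. Mcam had 486 CPM on the smooth muscle side and 53.5 CPM on the pericyte side, and Cspg4 297 and 105 CPM. Kcnj8 had no UMI on the smooth muscle side, against 105 CPM on the pericyte side; 0 of 21 cells allows up to 14.3% of cells with a UMI and does not bound the cells that express the gene. Notch3 was shared, at 365 CPM on the smooth muscle side and 527 CPM on the pericyte side.

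The contractile apparatus stood on the smooth muscle side. Tagln (transgelin, an actin-binding protein) had 1512 CPM there, against 11.9 CPM on the pericyte side. The regulatory light chain Myl9 had 986 against 55.5 CPM, beta-tropomyosin Tpm2 999 against 19.8 CPM, leiomodin Lmod1 837 against 23.8 CPM and Mylk 1580 against 155 CPM. Calponin (Cnn1) and the coactivator Myocd had 17 and 16 UMIs on the smooth muscle side and none on the pericyte side, at least 38.6-fold and 36.4-fold higher than 3 UMIs there would give. Phospholamban (Pln), which restrains the calcium pump of the sarcoplasmic reticulum, had 27 UMIs there and 1 on the pericyte side. Genes with less specific roles followed the same division: the adaptor Sorbs2 at 3686 against 170 CPM, the guidance factor Slit3 at 1458 against 291 CPM and the integrin Itga8 at 1094 against 57.5 CPM. Cald1, at 1323 against 901 CPM, and the cyclic GMP-dependent kinase Prkg1, at 3389 against 2140 CPM, were high on both sides. These levels pool the UMIs of all cells of a side, so cells rich in UMIs weigh most. Of the 74056 UMIs of the smooth muscle side, 1 cell held 15100 and another 11962. Single cells held 48 of the 112 Tagln UMIs, 38 of the 74 Tpm2 UMIs and 10 of the 17 Cnn1 UMIs there. Cnn1 was seen in 4 cells.

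Serum response factor binds the CArG box, and the promoters of contractile genes are known for it. The 2 promoters below, from RefSeq (GRCm38.p6, 250 bases before to 50 after the gene start), belong to smooth muscle side genes; capitals mark CArG boxes with at most 1 base off the consensus on the gene's strand, and the chromosomal windows are chr19:34255324-34255623 (minus strand) for Acta2 and chr2:156775214-156775513 (plus strand) for Myl9.
Acta2: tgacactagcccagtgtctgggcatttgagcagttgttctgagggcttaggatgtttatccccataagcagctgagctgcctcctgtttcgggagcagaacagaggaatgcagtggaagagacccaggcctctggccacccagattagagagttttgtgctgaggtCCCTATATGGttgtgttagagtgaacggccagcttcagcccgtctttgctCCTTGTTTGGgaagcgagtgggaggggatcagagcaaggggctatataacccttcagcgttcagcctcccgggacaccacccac
Myl9: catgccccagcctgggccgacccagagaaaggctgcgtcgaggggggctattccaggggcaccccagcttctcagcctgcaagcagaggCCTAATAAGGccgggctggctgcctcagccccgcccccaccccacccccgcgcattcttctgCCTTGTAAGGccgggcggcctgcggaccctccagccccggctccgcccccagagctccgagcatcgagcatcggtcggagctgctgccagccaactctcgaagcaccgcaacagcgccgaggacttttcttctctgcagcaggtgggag
The boxes begin 84 and 34 bases before the gene start in Acta2, neither of them exact, and 161 (exact) and 99 bases before it in Myl9. Over all 32851 promoters of this length, 1.63% held an exact box and 21.1% one with at most 1 base off. Among 30 promoters of 21 genes of the smooth muscle contractile list with Acta2 and Myh11, 2 held an exact box and 11 one with at most 1 base off. The CArG consensus reads the same on both strands, so 1 scan covered both. The promoter of Cnn1, also a smooth muscle side gene, held none. A match, or its absence, is a description of the letters in this window only.

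**Figure D2:**
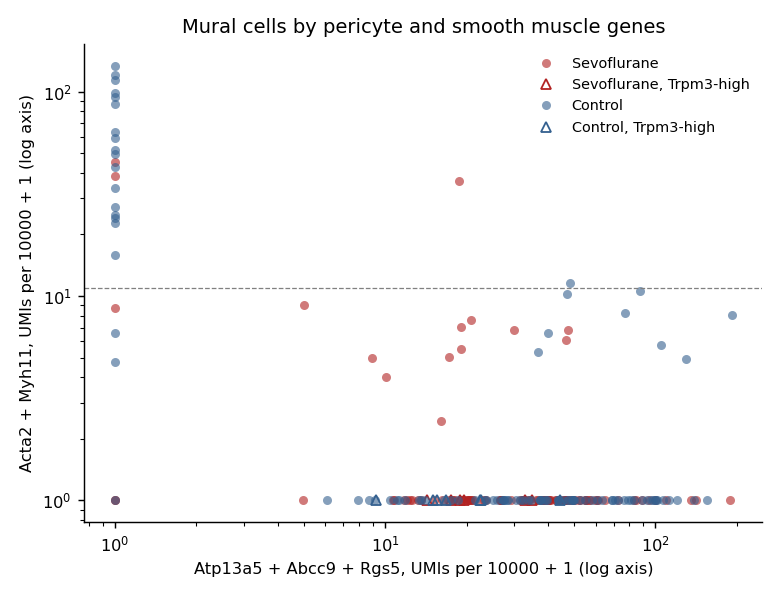
The 217 mural cells by the summed level of the pericyte genes Atp13a5, Abcc9 and Rgs5 (horizontal axis) and of the smooth muscle genes Acta2 and Myh11 (vertical axis), in UMIs per 10000 UMIs of the cell with 1 added, both on log axes. Points are cells, coloured by group, open triangles are the 13 Trpm3-high cells, and the dashed line marks 10 per 10000; 19 of the 21 smooth muscle side cells lie at 0 of the pericyte genes.

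A second set of cells stood apart by Trpm3, a calcium-permeable channel. In 13 mural cells Trpm3 reached at least 30 per 10000, a threshold set after the values were seen, and they held 1747 of the 1864 Trpm3 UMIs of the mural set. They passed the gate mainly through Atp13a5 (91 UMIs in 12 cells), with 9 UMIs of Pdgfrb, 8 of Rgs5, 3 of Abcc9 and 2 of Notch3 among them. Ranbp3l stood at 155 UMIs in these 13 cells against 13 in the other 204, prostaglandin D synthase Ptgds at 546 against 166, the sulfate transporter Slc13a4 at 29 against 2 and the transcription factor Bnc2 at 53 against 0. Slc6a20a was also high, at 3386 against 588 CPM. Acta2, Myh11, Mylk, Kcnj8 and the glutamate receptor Grm3 had no UMI in them, whereas Grm3 had 453 UMIs in the other mural cells. Over all mural cells Trpm3 stood at 3220 CPM, Ptgds at 1230 CPM and Ranbp3l at 290 CPM, against 6341, 6035 and 962 CPM in the fibroblast-gated cells. The leading genes of these 13 cells go against the label of pericyte or smooth muscle cell, and no other name is given. They numbered 1, 1 and 4 in Sevoflurane and 1, 0 and 6 in Control.

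Mural cells made up 0.154%, 0.279% and 0.790% of the kept cells in Sevoflurane 1, 2 and 3, against 0.582%, 0.345% and 0.511% in Control 1, 2 and 3. Sevoflurane held both the lowest and the highest of the 6 shares, and the groups overlapped. Pooled within a group, the share was 108 of 27101 cells in Sevoflurane (0.399%, exact 95% binomial interval 0.327% to 0.481%) and 109 of 23186 in Control (0.470%, 0.386% to 0.567%); such intervals cover counting error only. The mean was 0.408 ± 0.337% in Sevoflurane and 0.479 ± 0.122% in Control (SD, n = 3 each; two-sided exact permutation p = 0.8; 0.914 after Benjamini-Hochberg adjustment over 8 measures; smallest possible raw p 0.1). The log2 fold change of cell counts was -0.23 (SE 0.66, edgeR quasi-likelihood test, adjusted p = 0.740). It was 0.16 without Sevoflurane 1 and -1.15 without Sevoflurane 3, which held 69 of the 108 Sevoflurane mural cells, and neither passed the test (edgeR, adjusted p = 0.912 and 0.136). Endothelial-gated cells followed a similar order of libraries, at 0.184%, 0.499% and 1.01% in Sevoflurane and 0.994%, 0.264% and 0.887% in Control. There were 0.833, 0.558 and 0.784 mural cells per endothelial-gated cell in Sevoflurane, against 0.586, 1.30 and 0.576 in Control.

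Smooth muscle side cells were counted 1, 0 and 2 times in Sevoflurane 1, 2 and 3, against 1, 6 and 11 times in Control 1, 2 and 3. That is 6.67%, 0% and 2.90% of the mural cells in Sevoflurane, against 2.44%, 20% and 28.9% in Control. For Sevoflurane 2, with 0 of 24, 3 cells would be 12.5%, and the exact 95% interval reaches 14.2%. Control 2 and Control 3 thus held 17 of the 21 cells, while Control 1 lay within the range of the Sevoflurane libraries. The mean was 3.19 ± 3.34% in Sevoflurane and 17.1 ± 13.5% in Control, a difference of -13.9 percentage points that did not pass the test (SD, n = 3 each; two-sided exact permutation p = 0.3; 0.6 after the same adjustment). With 3 libraries in each group the raw exact permutation p cannot go below 0.1, so this share could not have passed 0.05. Pooled, 3 of 108 Sevoflurane mural cells (2.78%, exact 95% interval 0.577% to 7.90%) and 18 of 109 Control mural cells (16.5%, 10.1% to 24.8%) were on the smooth muscle side. With at least 1 UMI of Acta2 or Myh11 as the criterion, the shares were 6.67%, 12.5% and 15.9% in Sevoflurane, against 7.32%, 36.7% and 36.8% in Control. The doublet caller had marked 8 of the 21 smooth muscle side cells and 47 of the 196 pericyte side cells.

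**Figure D3:**
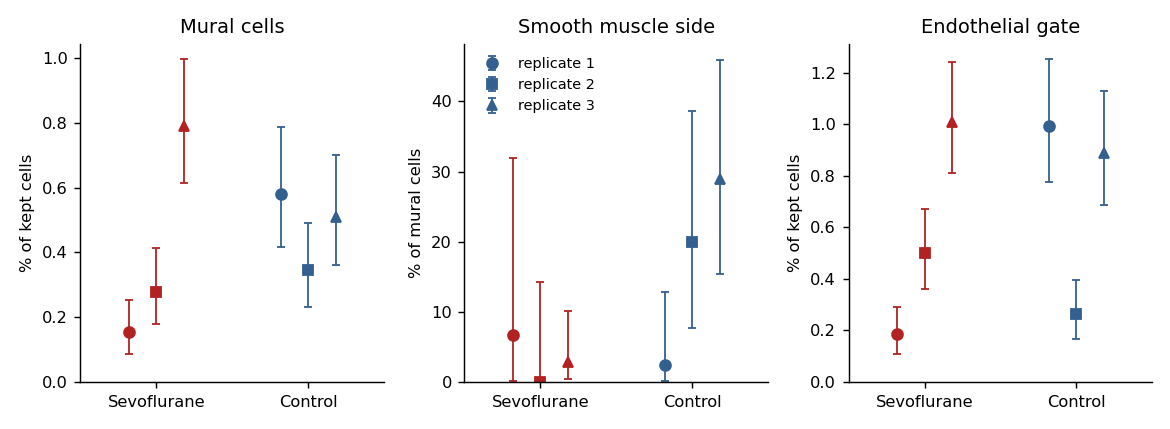
Share of mural cells among kept cells, of smooth muscle side cells among mural cells, and of endothelial-gated cells among kept cells, in percent by library, with exact 95% binomial intervals for counting error. Circles, squares and triangles are replicates 1, 2 and 3 of Sevoflurane (left) and Control (right); Control 2 and 3 have the highest smooth muscle shares and the mural share of Sevoflurane spans that of Control.

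UMIs per mural cell had library medians of 1806 ± 141 in Sevoflurane and 2182 ± 222 in Control (SD, n = 3 each), a difference of -376 UMIs (two-sided exact permutation p = 0.2). The median number of genes was 1273 ± 72.2 in Sevoflurane and 1438 ± 142 in Control (exact permutation p = 0.2). The median percent of mitochondrial UMIs was 0.749 ± 0.160 in Sevoflurane and 0.527 ± 0.116 in Control (exact permutation p = 0.2). The 3 measures come from the same cells, and the exact permutation p was 0.533 for each after the same adjustment. With 3 libraries in each group the raw p cannot go below 0.1, so none could have passed 0.05. After summing over mural cells a library held 28326, 41888 and 197486 UMIs in Sevoflurane, against 92741, 110082 and 108315 UMIs in Control, so that Sevoflurane 1 and 2 limit the precision of every gene below.

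The summed counts were compared between groups for 2564 genes that passed the filter on low counts. With the quasi-likelihood test of edgeR and Benjamini-Hochberg adjustment, 1 gene passed the threshold of 0.05 (0.039% of the genes tested), and it fell. No gene was called higher, and DESeq2 called none in either direction. At an unadjusted p under 0.05, 53 genes were higher (2.07%) and 120 lower (4.68%) in Sevoflurane. The libraries of the groups did not overlap for 158 higher genes (6.16%) and 156 lower genes (6.08%), and the median log2 fold change of all genes tested was 0.00. The count of called genes was 0 without any 1 of the Sevoflurane libraries, 32 without Control 1, 2 without Control 2 and 5 without Control 3.

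The called gene was Ttr, which encodes transthyretin, the thyroid hormone carrier that choroid plexus epithelium secretes. It had 0, 0 and 20.3 CPM in the mural cells of Sevoflurane 1, 2 and 3, against 485, 164 and 914 CPM in those of Control 1, 2 and 3. The groups did not overlap, and the 4 UMIs in Sevoflurane stand against 162 in Control. The log2 fold change was -5.10 (SE 0.76, edgeR adjusted p = 0.00657), lower in 3 of 3 Sevoflurane libraries. It was -4.35 without the 48 cells rich in markers of other cell types (edgeR adjusted p = 0.0239) and -8.33 without Sevoflurane 3. Ttr, as a choroid plexus marker, helped to choose those 48 cells, so the first of these values is no separate check. Ttr missed the threshold with DESeq2 (adjusted p = 0.138) and without Sevoflurane 1 (edgeR adjusted p = 0.0953), Sevoflurane 2 (0.136) or Sevoflurane 3 (0.232).

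Ttr was not particular to mural cells. It amounted to 0 to 0.058 UMIs per mural cell in Sevoflurane and 0.6 to 2.61 in Control. In cells chosen for neuronal markers, which do not make it, Ttr amounted to 0.0143 to 0.0187 UMIs per cell in Sevoflurane and 0.522 to 3.14 in Control. Of the 5 choroid plexus markers, Folr1 was at 0 in mural cells. Their sum, in which Ttr itself is counted, was 23.9 to 35.3 CPM in Sevoflurane and 173 to 933 CPM in Control. Ttr alone gave 485, 164 and 914 of the 518, 173 and 933 CPM of Control 1, 2 and 3. The sum is therefore no separate measure of the difference. The part of choroid plexus RNA in this difference was not tested.

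**Figure D4:**
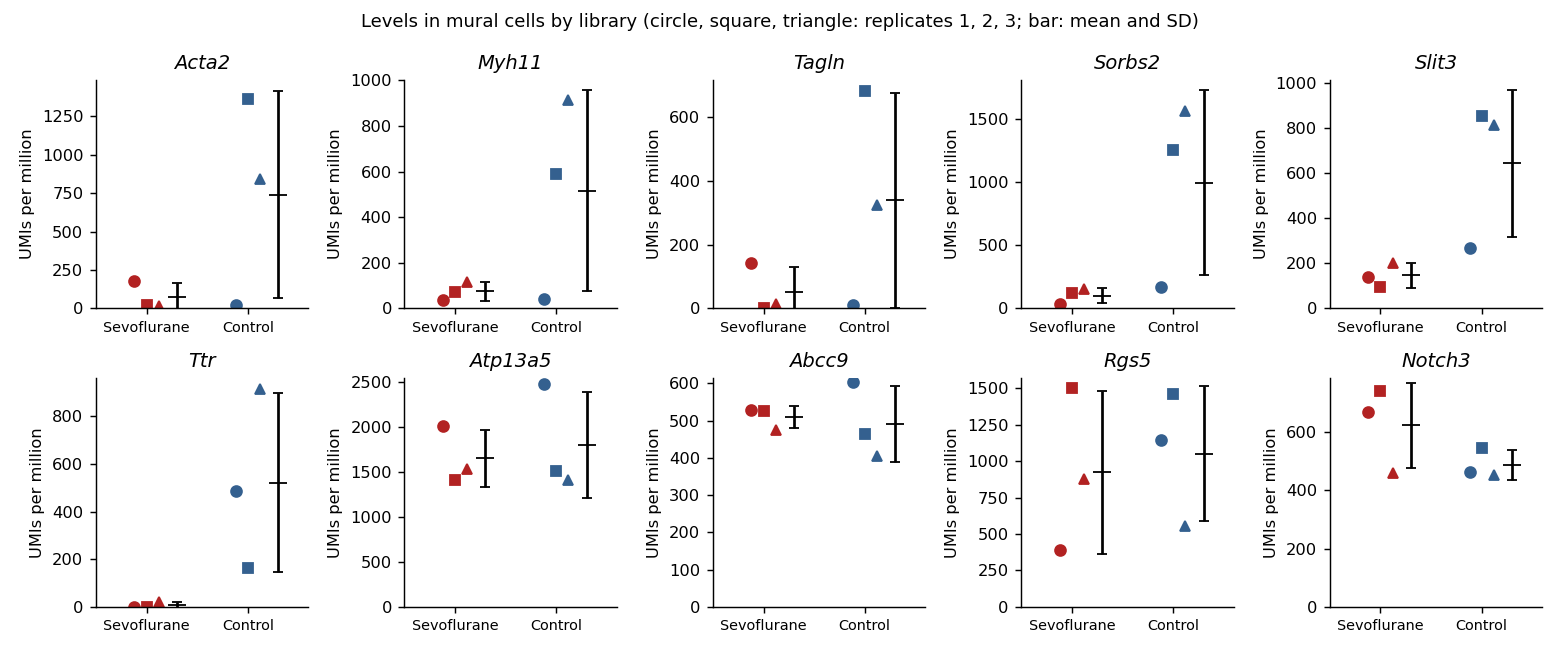
Levels of 10 genes in mural cells by library, in CPM, Sevoflurane on the left and Control on the right, with replicates 1, 2 and 3 as circle, square and triangle and the mean with SD beside them (bars below 0 are not drawn). Acta2, Myh11, Tagln and Sorbs2 are high in Control 2 and 3 and low in Control 1, Ttr is low in all 3 Sevoflurane libraries, and Atp13a5, Abcc9, Rgs5 and Notch3 overlap between groups.

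Among the genes that did not pass the test, those of smallest p on the lower side were led by smooth muscle side genes. Acta2, a gate gene and so without a test, had 177, 23.9 and 15.2 CPM in Sevoflurane, against 21.6, 1363 and 840 CPM in Control. Myh11 had 35.3, 71.6 and 117 CPM in Sevoflurane, against 43.1, 590 and 914 CPM in Control. In both genes Control 2 and 3 were high and Control 1 lay among the Sevoflurane libraries. In Control 2, 1 cell held 85 of the 150 Acta2 UMIs, and 1 cell held 48 of the 75 Tagln UMIs. Sorbs2, which ties actin to adhesion sites, had 35.3, 119 and 152 CPM in Sevoflurane, against 173, 1254 and 1560 CPM in Control (log2 fold change -3.08, SE 0.63, edgeR adjusted p = 0.134). Slit3 had 141, 95.5 and 203 CPM in Sevoflurane, against 270, 854 and 812 CPM in Control (log2 fold change -2.05, SE 0.47, edgeR adjusted p = 0.283). Tagln had 141, 0 and 15.2 CPM in Sevoflurane, against 10.8, 681 and 323 CPM in Control (log2 fold change -3.57, SE 1.00, edgeR adjusted p = 0.486). Csrp1, a cytoskeletal protein of smooth muscle, had 141, 47.7 and 25.3 CPM in Sevoflurane, against 75.5, 309 and 175 CPM in Control (log2 fold change -2.10, SE 0.62, edgeR adjusted p = 0.499). Sorbs2 and Slit3 did not overlap between the groups, whereas Tagln and Csrp1 did. Without Sevoflurane 3 the log2 fold change of Csrp1 was -1.20.

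The contractile list as a whole held 25 genes outside the gate, of which 14 were tested. None passed the test, 7 were lower at an unadjusted p under 0.05 (4.68% of all genes tested were) and none was higher. Their median log2 fold change was -1.15, against 0.00 for all genes tested. Tpm2 stood at 106, 23.9 and 35.4 CPM in Sevoflurane, against 32.3, 500 and 139 CPM in Control, where 1 cell held 38 of the 55 Tpm2 UMIs of Control 2. Mylk stood at 177, 215 and 177 CPM in Sevoflurane, against 194, 563 and 609 CPM in Control, and dystrophin (Dmd) at 459, 907 and 851 CPM, against 906, 1617 and 2363 CPM. In these 3 genes, as in Acta2, Control 1 lay within the range of the Sevoflurane libraries. Cald1, Prkg1 and Rbpms, which are not confined to the smooth muscle side, had log2 fold changes of 0.07 to 0.11.

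The pericyte side alone leaves out the cells highest in Acta2 and Myh11, so a smaller difference of contractile genes there is partly fixed by that choice, and the values are a description. Of the contractile list 11 genes were tested there, with a median log2 fold change of -0.06, whereas the same 11 genes had a median of -0.83 over all mural cells. Mylk stood at -0.06 (SE 0.40), Dmd at -0.19 (SE 0.35), Tpm1 at 0.55 (SE 0.38) and Mrvi1, a substrate of the cyclic GMP-dependent kinase, at -1.06 (SE 0.41). Sorbs2 had a log2 fold change of -0.89 (SE 0.43, edgeR adjusted p = 0.904) on the pericyte side, against -3.08 over all mural cells. Slit3 kept more of its difference, at -1.53 (SE 0.44, edgeR adjusted p = 0.634). Slit3 and Dmd stood at 1271 and 1200 CPM in the remaining cells of the libraries, above their 291 and 832 CPM on the pericyte side. In sums over mural cells, fewer smooth muscle cells and less RNA per cell cannot be told apart, and 22 pericyte side cells also had a UMI of Acta2 or Myh11.

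**Figure D5:**
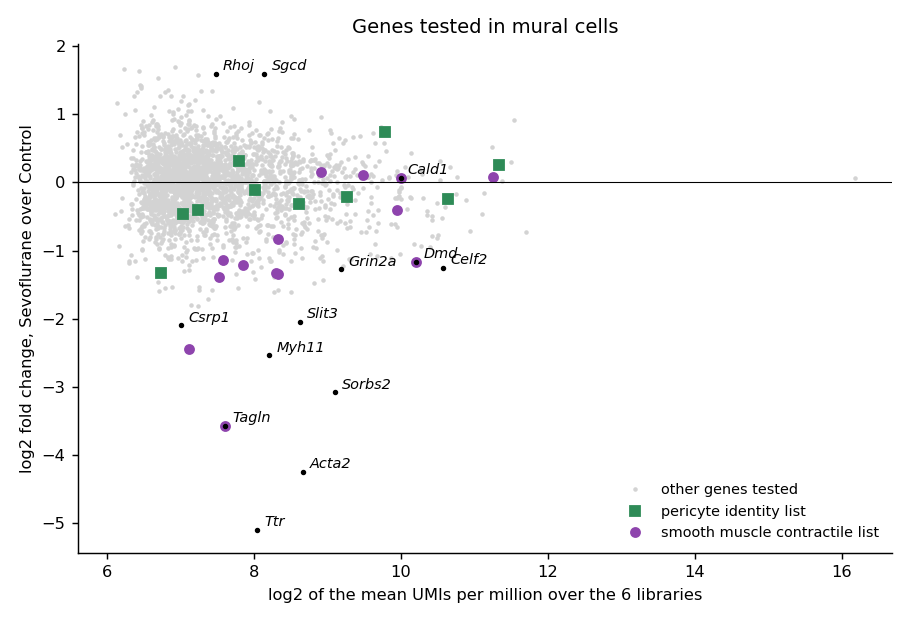
Log2 fold change, Sevoflurane over Control, against the log2 of the mean level of each of the 2564 genes tested in mural cells. Purple circles are the 14 tested genes of the contractile list, green squares the 10 tested pericyte identity genes and black dots the named genes; Ttr is the only gene that passed the test, and the contractile genes spread from 0.15 down to -3.57 while the pericyte genes lie between 0.73 and -1.34.

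Other genes of small p on the lower side included genes that are high in neurons. The NMDA receptor subunit Grin2a had 282, 358 and 385 CPM in Sevoflurane, against 809, 908 and 757 CPM in Control (log2 fold change -1.27, SE 0.33, edgeR adjusted p = 0.440). The RNA-binding protein Celf2 had 918, 740 and 1094 CPM in Sevoflurane, against 1768, 2534 and 2114 CPM in Control (log2 fold change -1.26, SE 0.32, edgeR adjusted p = 0.440). The groups did not overlap in either gene. Both are high in neurons. In the 42187 cells chosen for neuronal markers the same contrast gave -0.33 (SE 0.06) for Grin2a and -0.31 (SE 0.06) for Celf2. In endothelial-gated cells the sign was the opposite, at 0.71 (SE 0.44, edgeR adjusted p = 0.605) for Grin2a and 0.36 (SE 0.36, edgeR adjusted p = 0.781) for Celf2. The part of neuronal RNA in the mural values was not tested. The ryanodine receptor Ryr2 had a log2 fold change of -1.47 over all mural cells and of -0.87 (SE 0.37, edgeR adjusted p = 0.904) on the pericyte side, where Control 3 had 341 CPM of it against 979 CPM over all its mural cells. With Ryr2, Kctd16 (-1.56), the adhesion molecule Kirrel3 (-1.43) and 5730522E02Rik (-1.72) completed the 10 genes of smallest p, with adjusted p of 0.440 to 0.499 in edgeR. Without Sevoflurane 3 the log2 fold change of 5730522E02Rik was -3.30.

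On the higher side the small GTPase Rhoj had 424, 143 and 258 CPM in Sevoflurane, against 53.9, 99.9 and 92.3 CPM in Control (log2 fold change 1.59, SE 0.43, edgeR adjusted p = 0.440). Delta-sarcoglycan (Sgcd), a partner of dystrophin, had 106, 430 and 709 CPM in Sevoflurane, against 140, 164 and 148 CPM in Control (log2 fold change 1.59, SE 0.45, edgeR adjusted p = 0.499). Rhoj did not overlap between the groups, while Sgcd did, with Sevoflurane 1 lowest of all 6 libraries, and without Sevoflurane 3 its log2 fold change was 0.83. The scaffold protein Mpp7 had 247, 310 and 152 CPM in Sevoflurane, against 32.3, 72.7 and 92.3 CPM in Control (log2 fold change 1.57, SE 0.45, edgeR adjusted p = 0.499). Nostrin (1.53), the ether lipid-cleaving enzyme Agmo (1.35), Lima1 (1.64), Esf1 (1.67), the complex I subunit Ndufc1 (1.20), the Rac and Cdc42 GTPase-activating protein Arhgap31 (1.18) and the transcription factor subunit Nfkb1 (1.15) completed the 10, without overlap between the groups and with adjusted p of 0.505 to 0.564 in edgeR. In 3 of these, Esf1, Lima1 and Nostrin, Sevoflurane 1 rested on 3 or 4 UMIs. Sevoflurane 1 was the highest library for Rhoj, Agmo, Arhgap31 and Nfkb1. With 1 library left out, their log2 fold changes went down to 1.34, 1.08, 0.84 and 1.02.

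Of 20 pericyte identity genes outside the gate, 10 were tested and none passed. By sign 3 were higher and 7 lower, and Mcam was the lowest at -1.34 (SE 0.65, edgeR adjusted p = 0.730). Slc6a20a was higher at an unadjusted p under 0.05, with 1377, 1027 and 987 CPM in Sevoflurane, against 507, 654 and 766 CPM in Control (log2 fold change 0.73, SE 0.32, edgeR adjusted p = 0.664). The groups did not overlap in this gene, although the 13 Trpm3-high cells held 168 of its 479 UMIs. Of all genes tested, 2.07% were higher at that unadjusted p and 6.16% were higher without overlap. Ebf1 (-0.24), Vtn (-0.22) and Dlc1 (0.26) had differences smaller than their standard errors. The median of the list was -0.23.

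Receptors and second messengers of vascular tone showed the same lack of calls. Of 29 genes 9 were tested outside the gate, with a median log2 fold change of 0.08, and none passed. The endothelin receptor Ednra had 424, 143 and 177 CPM in Sevoflurane, against 313, 200 and 185 CPM in Control. Soluble guanylate cyclase, the nitric oxide sensor, had log2 fold changes of 0.47 (SE 0.40, Gucy1a1) and 0.63 (SE 0.38, Gucy1b1), while the phosphodiesterases Pde5a, Pde3a and Pde7b had -0.68 (SE 0.37), -0.58 (SE 0.42) and 0.97 (SE 0.44). Pde7b was the member higher at an unadjusted p under 0.05 (2.07% of all genes tested were), and none was lower (4.68%). Adrenergic, prostanoid and vasopressin receptors were too sparse to test: Adra1a had 47 UMIs in all mural cells, Ptger3 19 and Avpr1a 0.

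Among 28 ion channel and calcium handling genes, 16 were tested outside the gate. None passed, 4 were lower at an unadjusted p under 0.05 (4.68% of all genes tested were) and none higher (2.07%), and the median was -0.26. The 4 were Ryr2, Ryr3, the calcium channel subunit Cacnb2 and the large-conductance potassium channel Kcnma1, each of which had a level in the remaining cells of the libraries above that in mural cells. Ryr2, for one, stood at 480 CPM in mural cells against 1160 CPM in the remaining cells. Ano1, a channel with 264 CPM in mural cells against 6.88 CPM in the remaining cells, had 388, 406 and 253 CPM in Sevoflurane, against 334, 273 and 129 CPM in Control (log2 fold change 0.39, SE 0.40). Its groups overlapped.

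Transport genes divided. Slc38a11 had 212, 286 and 268 CPM in Sevoflurane, against 636, 363 and 646 CPM in Control (log2 fold change -1.11, SE 0.36, edgeR adjusted p = 0.505). The groups did not overlap in this gene, and it did not pass the test. Of 10 tested transporters outside the gate, 1 (Slc6a20a) was higher and 2 were lower at an unadjusted p under 0.05 (2.07% and 4.68% of all genes tested), and the median of the list was 0.01.

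Basement membrane and matrix genes had a median of 0.09 over 14 tested genes. Sparcl1 (-0.73) was the member lower at an unadjusted p under 0.05 (4.68% of all genes tested were). The collagen IV chains Col4a1 and Col4a2 stood at 0.54 (SE 0.41) and -0.13 (SE 0.42). For platelet-derived growth factor, TGF-beta and angiopoietin signalling, 6 of 24 genes were tested, with a median of -0.15 and none at an unadjusted p under 0.05. For Notch signalling 5 of 16 were tested, with a median of -0.03 and again none.

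General response lists were thinly measured in so few cells. Of 24 immediate-early genes none passed the filter on low counts, and of 31 interferon and inflammatory genes Nfkb1 was tested. Of 22 genes of sterol synthesis and uptake 2 were tested, and neither passed. Srebf2, the regulator of sterol synthesis, had 177, 167 and 162 CPM in Sevoflurane, against 129, 63.6 and 73.9 CPM in Control (log2 fold change 0.88, SE 0.40, edgeR adjusted p = 0.692). It was higher in 3 of 3 Sevoflurane libraries. Ribosomal protein genes (31 of 36 tested, median 0.02), nuclear genes of oxidative phosphorylation (24 of 28, median 0.21), glucocorticoid-responsive genes (6 of 22, median 0.26), clock genes (6 of 20, median 0.23), hypoxia and angiogenic genes (3 of 20, median 0.29) and unfolded protein response genes (5 of 20, median -0.01) held no call, and 1 of their members, a gene of oxidative phosphorylation, was at an unadjusted p under 0.05.

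The effect of sevoflurane was then compared between mural and endothelial-gated cells of the same libraries, with an interaction term of class by group in a fit blocked on library. Of 3650 genes tested, 5 passed the threshold (0.137%), a count that ran from 1 (without Sevoflurane 2 or Sevoflurane 3) to 33 (without Control 2) when a library was left out. Trpm3, Mpp7 and Nhsl1 had a higher log2 fold change in mural than in endothelial-gated cells (3 genes, 0.0822%). Itga8 and Slit3 had a lower one (2 genes, 0.0548%). Slit3 had a difference of -2.65 (SE 0.50, edgeR adjusted p = 0.0384), with the mural levels given above, against 421, 128 and 463 CPM in endothelial-gated cells of Sevoflurane and 147, 392 and 163 CPM in those of Control. Itga8 had a difference of -4.07 (SE 0.74, edgeR adjusted p = 0.0349), with 35.3, 47.7 and 35.4 CPM in mural cells of Sevoflurane and 64.7, 400 and 462 CPM in those of Control. The high mural values of both genes lay in Control 2 and 3, the libraries with most smooth muscle side cells. Mpp7 had a difference of 3.64 (SE 0.58, edgeR adjusted p = 0.0100) and Nhsl1 of 2.65 (SE 0.50, edgeR adjusted p = 0.0384). In fits of each class alone, Nhsl1 had a log2 fold change of 0.82 (SE 0.42, edgeR adjusted p = 0.776) in mural cells. In endothelial-gated cells it was -1.91 (SE 0.36, edgeR adjusted p = 0.0483). In endothelial-gated cells Mpp7 stood at 46.8, 39.2 and 30.8 CPM in Sevoflurane and at 130, 92.3 and 224 CPM in Control, the opposite order of groups to that in mural cells.

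Trpm3 had the largest difference of the 5 genes, 4.32 (SE 0.50, edgeR adjusted p = 0.000305). In fits of each class alone, its log2 fold change was 0.91 (SE 0.73, edgeR adjusted p = 0.909) in mural cells. In endothelial-gated cells it was -2.68 (SE 0.65, edgeR adjusted p = 0.102). It had 2789, 4035 and 4932 CPM in mural cells of Sevoflurane and 819, 81.8 and 5142 CPM in those of Control. In endothelial-gated cells it had 421, 265 and 582 CPM in Sevoflurane and 2726, 381 and 4901 CPM in Control. With Mecom left out of the endothelial gate, an alternative chosen after the values were seen, those levels were 402, 281 and 577 CPM in Sevoflurane and 305, 380 and 720 CPM in Control, and Trpm3 did not pass (2.04, edgeR adjusted p = 0.316) while the other 4 genes did. Without the 13 Trpm3-high cells none of the 5 passed, but the differences of Mpp7 (3.35, edgeR adjusted p = 0.0674), Nhsl1 (2.42, 0.137) and Slit3 (-2.42, 0.186) stayed close to their size with these cells. That of Trpm3, which defines them, was 1.35 (0.542), and Itga8 was below the filter on low counts.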

How the data were processed

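Single-cell RNA was measured in 3 Sevoflurane and 3 Control libraries. The authors deposited UMI counts per gene and barcode, which per the file headers come from Cell Ranger 6.1.1; the submitters' processing notes also name CASAVA 1.8 and Seurat. Genome build and annotation: not given in the sources used here. Kept barcodes had 500 or more UMIs, 300 or more genes and at most 20% mitochondrial UMIs, and mural cells were chosen by the gate stated above. The members and the gene lists were chosen with earlier results of these data known. Counts of mural cells were summed per library and tested with edgeR 4.0.16 (R 4.3.3; filterByExpr, TMM factors 0.951 to 1.05, quasi-likelihood test, Benjamini-Hochberg threshold 0.05), with DESeq2 1.42.0 as an alternative; CPM are UMIs per 1000000 UMIs of the summed cells. Genes named in the text were Ttr as the called gene, the 10 of smallest p in each direction, the gate genes and list members. Doublets were marked with Scrublet (scanpy 1.11.5) and kept in the main comparison. Without the marked cells Sevoflurane 1 held 2 mural cells and Control 2 held 6, so a comparison without them rests on few cells. Shares were compared with an exact permutation test (scipy 1.17.1). Alternatives were other size factors, no filter, DESeq2, a replicate block, stricter or cleaner cell sets, and each library left out. The test was tested on simulated data. Some members of the lists are not reported here.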

Additional observations from a re-analysis of the deposited data

Results flagged for a closer look

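The effect of sevoflurane differed between mural and endothelial-gated cells, by the interaction test of edgeR, for 5 genes. The difference of log2 fold changes, mural minus endothelial, was 4.32 for Trpm3, 3.64 for Mpp7, -4.07 for Itga8, 2.65 for Nhsl1 and -2.65 for Slit3. For Trpm3 the difference was 2.04 with Mecom left out of the endothelial gate and 1.35 without the 13 Trpm3-high cells. The other 4 genes stayed called with Mecom left out. Without the 13 Trpm3-high cells none of the 5 genes passed, and Itga8 was below the filter on low counts. The part of the smooth muscle side cells of Control 2 and 3 in the values of Itga8 and Slit3 was not tested.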

How the results depend on the processing

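The 1 called gene of the comparison between groups became 23 called genes with no filter beyond 10 UMIs in all (9314 tested), 0 with DESeq2 (91 at an unadjusted p under 0.05) and 0 with a stricter gate (994 tested, 70 at an unadjusted p under 0.05). Leaving out 1 library gave 0 to 32 called genes. With the replicate block 3 genes were called. The deviations of same-numbered libraries from their group means had correlations of 0.03, -0.04 and 0.02. These rest on sums over few shallow cells, so they cannot decide whether same-numbered libraries belong together. The 5 genes of the comparison with endothelial-gated cells became 71 with no filter, 1 with DESeq2 and 13 with Mecom left out of the endothelial gate, and leaving out 1 library gave 1 to 33. The log2 fold change of the mural cell counts lay between -1.15 and 0.16 with 1 library left out, the positive value being that without Sevoflurane 1; the difference in smooth muscle side share lay between -21.3 and -8.03 percentage points and that in UMIs per cell between -495 and -275. Sorbs2, Slit3, Ryr2, Tagln and Csrp1 passed in 10 of 259 alternatives over the 20 named genes that were not called, and none of the 259 reversed. Where a group was left with 2 libraries, permutation could not give a p under 0.2. The cause of these differences was not tested. The 15 and 24 mural cells of Sevoflurane 1 and 2 limit the depth.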
